A study of Mus musculus with 24 samples.

Results

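The positive arm of the circadian clock and its CRY repressors are described here in inguinal white adipose tissue, the fat depot under the skin of the groin, of mice. The 6 genes, Arntl, Clock, Npas2, Nfil3, Cry1 and Cry2, were found by symbol among the 17541 genes of the deposited count table, and all 6 were among the 15939 genes with enough counts to be tested. On GRCm38, all 6 are annotated as protein-coding: Arntl at chr7:113207465-113314126 and Npas2 at chr1:39193731-39363236 on the plus strand, and Clock at chr5:76209868-76304792, Nfil3 at chr13:52967209-52981073, Cry1 at chr10:85131700-85185064 and Cry2 at chr2:92403646-92434043 on the minus strand. The mice were C57BL/6J, all fed a high-fat diet, and 24 libraries of 3' transcript ends were sequenced, 1 from each mouse. The groups were 5 Aged BAM15 and 6 Aged CTRL mice of 92 weeks, and 6 Young BAM15 and 7 Young CTRL mice of 16 weeks. The compound BAM15 uncouples mitochondrial respiration from ATP synthesis. The labels give neither its dose, nor the sex of the mice, nor the time of day at which the fat was taken.

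The mammalian clock is a loop of transcription in which BMAL1, the product of Arntl, pairs with CLOCK or its relative NPAS2 and binds E-boxes in DNA. The pair activates the Per and Cry genes, whose proteins return to the nucleus and block it, and the genes of the REV-ERB receptors, which repress Arntl through ROR response elements (ROREs) where ROR receptors activate it. NFIL3 is a repressor that binds D-boxes, the sites at which DBP, TEF and HLF activate. In mouse fat this loop runs in the adipocytes themselves, and its transcripts rise and fall over the day, Arntl in opposite phase to Dbp and the Per genes.

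The promoter windows of the 6 genes were read from RefSeq (GRCm38.p6), from 250 bases before to 50 bases after each transcript start, 9 windows in all. Of the 4 that hold a match to an element of the loop, 3 are shown, and the other is an Arntl window that overlaps the one printed. Position 1 is the first base of the transcript, and the base before it is -1. The Arntl window is chr7:113207261-113207560 on the plus strand, with the capitals marking a RORE with 1 free base (AGTAGGTNA) at -8 to 1 and again at 29 to 37. The Nfil3 window is chr13:52980990-52981289 on the minus strand, with the same element on the opposite strand in capitals at -12 to -4. The Cry1 window is chr10:85185005-85185304 on the minus strand, with an E-box (CACGTG) in capitals at -60 to -55.
Arntl: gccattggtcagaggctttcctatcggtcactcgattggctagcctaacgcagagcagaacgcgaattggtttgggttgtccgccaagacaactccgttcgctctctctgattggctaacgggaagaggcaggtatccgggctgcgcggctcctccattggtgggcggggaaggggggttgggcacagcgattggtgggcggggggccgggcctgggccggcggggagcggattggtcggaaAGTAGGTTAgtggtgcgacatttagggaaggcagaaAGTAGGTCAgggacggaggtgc
Nfil3: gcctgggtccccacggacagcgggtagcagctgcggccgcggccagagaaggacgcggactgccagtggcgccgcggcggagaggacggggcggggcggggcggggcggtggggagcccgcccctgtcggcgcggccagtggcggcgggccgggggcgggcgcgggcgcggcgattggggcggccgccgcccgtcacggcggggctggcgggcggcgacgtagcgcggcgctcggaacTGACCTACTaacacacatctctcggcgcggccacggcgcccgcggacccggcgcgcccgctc
Cry1: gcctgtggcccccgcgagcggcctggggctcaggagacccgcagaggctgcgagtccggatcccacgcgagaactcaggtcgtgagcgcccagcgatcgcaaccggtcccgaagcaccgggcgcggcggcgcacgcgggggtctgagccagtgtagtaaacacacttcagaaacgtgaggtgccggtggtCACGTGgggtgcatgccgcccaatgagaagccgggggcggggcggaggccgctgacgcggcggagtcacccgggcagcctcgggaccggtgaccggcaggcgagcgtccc

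Both strands were searched for 4 motifs. The RORE core TAGGTCA was found in 2 of the 9 windows, those printed for Arntl and Nfil3, where it lies inside the longer element at 31 to 37 and at -12 to -6, and in 2.61% of the 32851 RefSeq promoter windows of that length. The longer AGTAGGTNA was searched for after the Arntl window had been read, so its Arntl matches were known beforehand. It was found in 3 of the 9 windows, which include a second, overlapping Arntl window, and in 0.591% of all windows. For that reason these shares are no test of enrichment. CACGTG was found in 1 of the 9 windows and in 7.15% of all windows. The D-box TTATGTAA was found in none of the 9 windows and in 0.938% of all windows. The windows of Clock, Npas2 and Cry2 held none of these letters. A match of letters is a description of the window and not evidence of a bound site.

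Libraries held between 8.62 and 21.9 M counts. Levels are in CPM, a gene's counts per M counts of its library after scaling. Genes counted as called had an adjusted p under 0.05 (edgeR, Benjamini-Hochberg over all genes tested). In 4 libraries, Aged BAM15 2, Aged BAM15 5, Aged CTRL 2 and Young CTRL 4, the mitochondrial ribosomal transcript mt-Rnr2 held 0.121 to 0.257% of counts, against 0.722 to 2.26% in the other 20. All mitochondrial transcripts together held 12.0 to 21.4% of counts in those 4 and 4.82 to 9.27% in the others. Adipocyte markers were abundant in every library, with 10 of the 10 markers tested and sums of 28076 to 80172 CPM in Aged BAM15, 31683 to 61470 in Aged CTRL, 16304 to 42901 in Young BAM15 and 18596 to 54019 in Young CTRL. B cell markers summed to 1.84 to 364 CPM in Aged BAM15, 6.32 to 264 in Aged CTRL, 2.74 to 1416 in Young BAM15 and 2.70 to 392 in Young CTRL. The keratin gene Krt14 passed 50 CPM in Young CTRL 1 (840 CPM) and Young CTRL 7 (90.0 CPM) only. The 2 mammary epithelium markers tested, Krt18 and Epcam, summed to 124 CPM in Young CTRL 1 and 5.62 in Young CTRL 7. Their highest sums were 4.35 CPM in Aged BAM15, 1.96 in Aged CTRL and 2.30 in Young BAM15. Skeletal muscle markers summed to 168 to 8222 CPM in Aged BAM15, 23.1 to 19496 in Aged CTRL, 27.3 to 55056 in Young BAM15 and 26.0 to 50506 in Young CTRL.

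Arntl, the gene of the obligate partner BMAL1, had lower means in aged fat in both treatments. It was counted at 3.24, 1.51, 1.79, 2.82 and 9.16 CPM in the 5 Aged BAM15 mice, numbered 1 to 5. In Aged CTRL the lowest, median and highest of 6 mice were 1.67, 5.71 and 8.40 CPM. In Young BAM15 they were 6.37, 11.0 and 15.2 CPM, and in Young CTRL they were 6.30, 14.3 and 18.3 CPM. Of the aged mice, 4 of 5 with BAM15 lay below every Young BAM15 mouse and 4 of 6 controls lay below every Young CTRL mouse. The exception among the aged mice with BAM15 was mouse 5, and the lowest Young CTRL mouse was mouse 4, both libraries with low mt-Rnr2. In bulk tissue, fewer cells that express a gene and less RNA per cell cannot be told apart. An annotated antisense gene, Gm45355, overlaps exons of Arntl, and the strand setting of the counting is not given in the sources used here, so reads of both cannot be told apart.

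**Figure D1:**
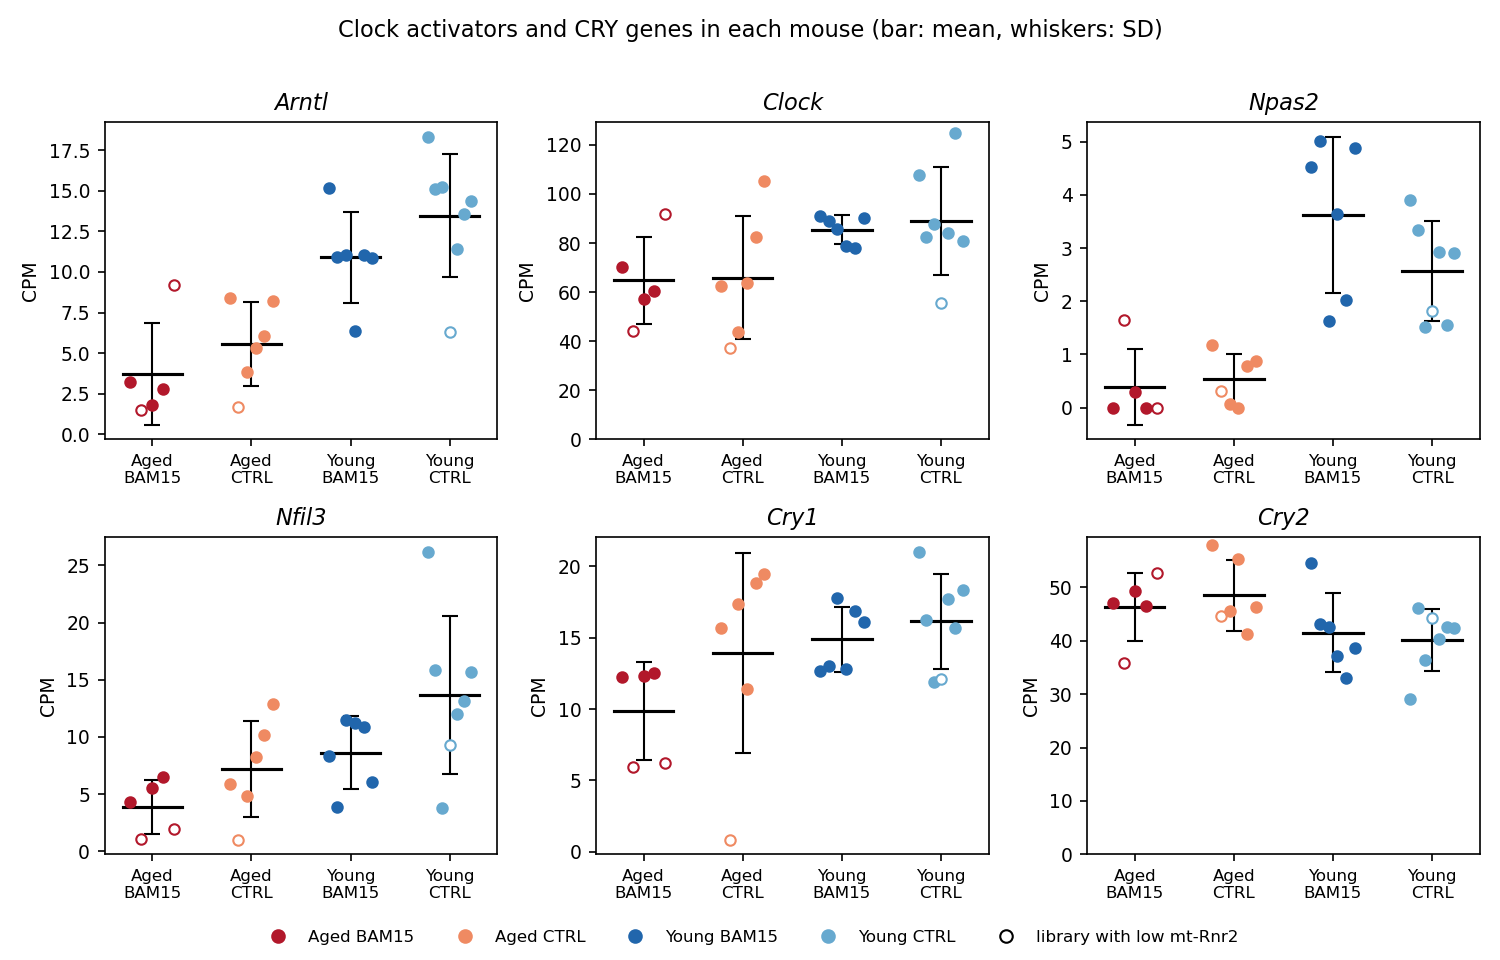
Level of each of the 6 genes in CPM (vertical axes, linear) in the 24 mice, by group; bars are means, whiskers are SD, and open circles are the 4 libraries with low mt-Rnr2. The means of Arntl and Npas2 lie lower in both aged groups, while the 4 groups overlap for Clock and Cry2.

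In the age comparison of untreated mice, the mean of Arntl was 5.59 ± 2.59 CPM in Aged CTRL (SD, n = 6), against 13.5 ± 3.78 CPM in Young CTRL (SD, n = 7), a log2 change of -1.27 (SE 0.39). It did not pass the test over all genes (edgeR, adjusted p = 0.219). None of the 6 genes did, beside 0.207% of all genes. DESeq2 called none of the 6 either, beside 179 of the 15544 genes it gave an adjusted p. With limma-voom, Arntl (adjusted p = 0.0074) and Npas2 (adjusted p = 0.020) were called, among 145 of 15939 genes. Before adjustment, 2 of the 6 were lower at a p under 0.05 in edgeR, Arntl and Npas2, beside 3.86% of all genes lower at that limit. The median log2 change of the 6 genes was -0.68, against -0.04 over all genes tested.

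In the age comparison of treated mice, which shares no mouse with the first, Arntl averaged 3.70 ± 3.13 CPM in Aged BAM15 (SD, n = 5) and 10.9 ± 2.79 CPM in Young BAM15 (SD, n = 6). The log2 change was -1.55 (SE 0.43), with an adjusted p of 0.122 in edgeR. Again none of the 6 genes was called in edgeR, beside 0.427% of all genes. DESeq2 called Arntl (adjusted p = 0.020), among 370 of the 10940 genes it gave an adjusted p. It gave Npas2 no adjusted p. With limma-voom, Arntl (adjusted p = 0.00075) and Npas2 (adjusted p = 0.0058) were called, among 302 of 15939 genes. Before adjustment, 3 of the 6 were lower at a p under 0.05 in edgeR, Arntl, Npas2 and Nfil3, beside 5.78% of all genes. The median of the 6 genes was -0.88 on the log2 scale, against -0.10 over all genes.

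Without the 4 libraries with low mt-Rnr2, Arntl was called in both age comparisons. Its mean was then 6.37 ± 1.94 CPM in Aged CTRL (SD, n = 5), against 14.7 ± 2.28 CPM in Young CTRL (SD, n = 6), a log2 change of -1.20 (edgeR, adjusted p = 0.028). In the treated mice it was 2.62 ± 0.75 CPM in Aged BAM15 (SD, n = 3) and 10.9 ± 2.79 CPM in Young BAM15 (SD, n = 6), a log2 change of -2.04 (edgeR, adjusted p = 0.0037). Arntl was the sole member called in each, among 79 genes called in controls and 27 in treated mice, of 16553 tested. The libraries left out held the highest Arntl value of Aged BAM15 (9.16 CPM) and the lowest of Young CTRL (6.30 CPM). They also held the lowest of Aged BAM15 (1.51 CPM) and of Aged CTRL (1.67 CPM). With Aged BAM15 5 alone left out, the Arntl change among treated mice was -2.22 (edgeR, adjusted p = 0.019), among 14 genes called. With Aged CTRL 2 alone left out of the shared fit it was -1.55 (edgeR, adjusted p = 0.044), among 245 genes called.

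A comparison of age over both treatments, added after the values above were seen, was made in the same fit. Arntl fell by 1.41 on the log2 scale (SE 0.29, edgeR adjusted p = 0.0093) and Npas2 fell by 2.72 (SE 0.67, adjusted p = 0.030). That is 2 of 6 genes called, both lower, beside 2.15% of all genes called and 0.433% called lower. Clock at -0.42 (adjusted p = 0.170), Nfil3 at -1.04 (0.115), Cry1 at -0.40 (0.438) and Cry2 at 0.21 (0.296) did not pass in edgeR. DESeq2 also called Nfil3 (adjusted p = 0.048) among 938 genes, and limma-voom also called Clock (adjusted p = 0.023) among 757, so that each called 3 of the 6. The Arntl call held in every alternative run, with the largest adjusted p at 0.027 without the 2 libraries with high Krt14. Among the fits with libraries left out, the Npas2 call was lost there (adjusted p = 0.064) and in 3 fits that left out 1 library, with adjusted p of 0.057 without Aged BAM15 5, 0.054 without Young BAM15 2 and 0.052 without Young BAM15 6.

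**Figure D2:**
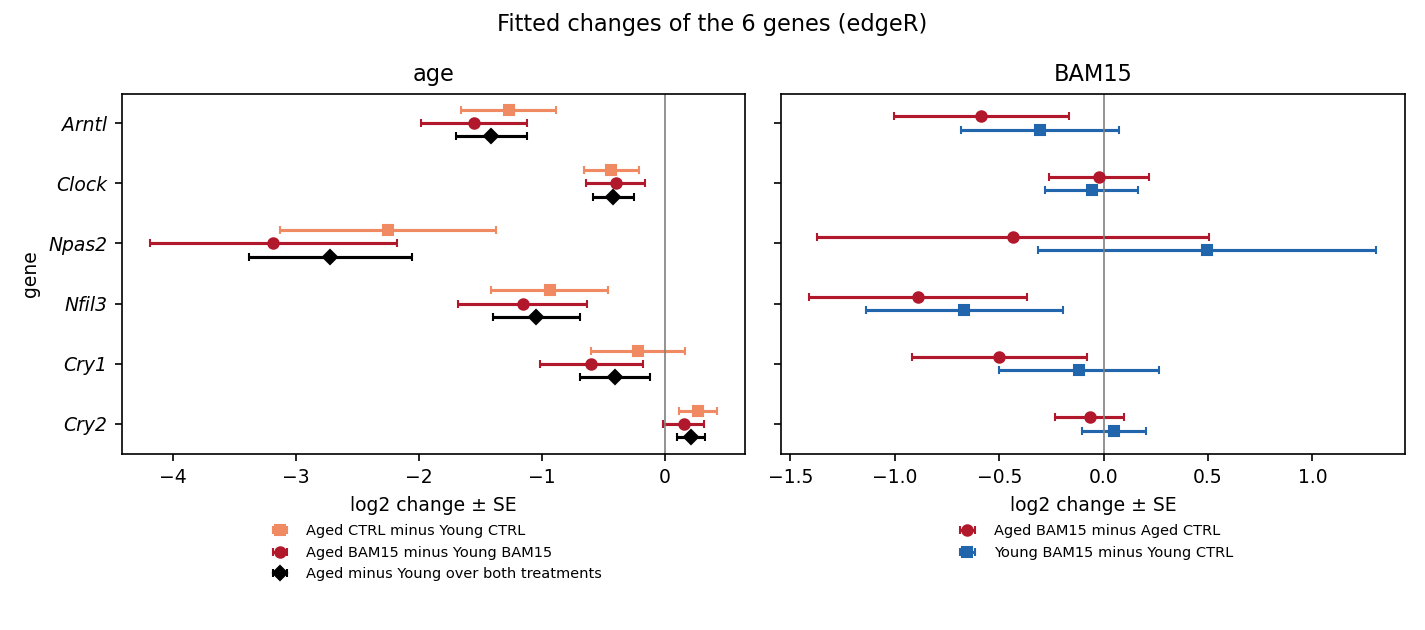
Fitted log2 change with its SE (horizontal axis) for each of the 6 genes, for age on the left and BAM15 on the right. The age changes of Arntl and Npas2 lie at or below -1.27 in each comparison, and Cry2 lies slightly above 0.

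Npas2 encodes the relative of CLOCK that can take its place beside BMAL1. It was the least counted member, with 590 counts over the 24 libraries. It was at 0 counts in Aged BAM15 1, 4 and 5, at 0.298 CPM in Aged BAM15 3 and at 1.65 CPM in Aged BAM15 2. In Aged CTRL it was at 1.17, 0.312, 0.0685, 0, 0.782 and 0.869 CPM in mice 1 to 6. A count of 0 allows a level of up to 0.173 to 0.291 CPM in those libraries (3 counts, counting error only). The lowest, median and highest were 1.63, 4.08 and 5.02 CPM in Young BAM15 and 1.52, 2.91 and 3.91 CPM in Young CTRL.

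All 6 Aged CTRL mice lay below all 7 Young CTRL mice for Npas2, beside 0.157% of genes with such a separation in that direction. The log2 change was -2.25 (SE 0.88, edgeR adjusted p = 0.414). Between Aged BAM15 and Young BAM15 it was -3.18 (SE 1.00, adjusted p = 0.159), and 4 of 5 aged mice lay below every young one. The fifth, Aged BAM15 2, a library with low mt-Rnr2, lay just above the lowest Young BAM15 mouse, at 1.65 against 1.63 CPM. With it left out the change was -5.33 (edgeR, adjusted p = 0.032), among 30 genes called. That fitted value depends on the prior count because 3 of the 4 remaining aged mice had no counts.

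Clock encodes the partner of BMAL1 that carries histone acetyltransferase activity. It averaged 64.8 ± 17.8 CPM in Aged BAM15 (SD, n = 5), 65.9 ± 25.1 in Aged CTRL (SD, n = 6), 85.5 ± 5.77 in Young BAM15 (SD, n = 6) and 89.0 ± 21.9 for Young CTRL (SD, n = 7). The Aged CTRL mice ranged from 37.3 to 105 CPM and the Young CTRL mice from 55.6 to 125 CPM, so the groups overlapped. The log2 change with age was -0.43 (SE 0.22, edgeR adjusted p = 0.630) in controls and -0.40 (SE 0.24, adjusted p = 0.397) in treated mice. The treated aged mice ranged from 44.2 to 91.9 CPM, against 78.2 to 91.2 CPM in Young BAM15, and 4 of 5 lay below every young mouse while mouse 5 lay above all of them. Aged BAM15 5 thus held the highest value of its group for both Arntl and Clock. It is a library with low mt-Rnr2, as are those with the lowest Clock value in Aged BAM15, Aged CTRL and Young CTRL. Without the 4 such libraries the means of Clock were 62.7 CPM in Aged BAM15, 71.6 in Aged CTRL, 85.5 in Young BAM15 and 94.6 in Young CTRL.

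Nfil3, the D-box repressor, averaged 3.88 ± 2.33 CPM in Aged BAM15 (SD, n = 5), 7.17 ± 4.19 in Aged CTRL (SD, n = 6), 8.63 ± 3.15 in Young BAM15 (SD, n = 6) and 13.7 ± 6.90 for Young CTRL (SD, n = 7). The log2 change with age was -0.93 (SE 0.48, edgeR adjusted p = 0.626) in controls and -1.15 (SE 0.53, adjusted p = 0.281) in treated mice, and the groups overlapped in both. Its lowest values, 0.989 CPM in Aged CTRL 2, 1.03 in Aged BAM15 2 and 1.96 in Aged BAM15 5, were in libraries with low mt-Rnr2. Without the 4 such libraries the changes were -0.77 and -0.64.

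Cry1 and Cry2 encode the cryptochromes, which with the PER proteins repress the BMAL1 complex, CRY1 being the stronger repressor in mouse cells. Cry1 was at 12.3, 5.92, 12.3, 12.5 and 6.23 CPM in Aged BAM15 mice 1 to 5 and ranged from 0.833 to 19.4 CPM in Aged CTRL. It ranged from 12.7 to 17.8 CPM in Young BAM15 and from 11.9 to 21.0 CPM in Young CTRL. All 5 Aged BAM15 mice lay below all 6 Young BAM15 mice, beside 0.885% of genes separated in that direction, but 3 of the 5 lay within 0.5 CPM of the lowest young mouse. The log2 change there was -0.60 (SE 0.42, edgeR adjusted p = 0.465), and in controls it was -0.21 (SE 0.38, adjusted p = 0.960).

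The 3 lowest Cry1 levels, 0.833 CPM in Aged CTRL 2, 5.92 in Aged BAM15 2 and 6.23 in Aged BAM15 5, were again in libraries with low mt-Rnr2. Without the 4 such libraries the Cry1 changes with age were -0.02 in controls and -0.24 in treated mice, and the group means were 12.4 CPM in Aged BAM15, 16.5 in Aged CTRL, 14.9 in Young BAM15 and 16.8 in Young CTRL.

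Cry2 was the member with the opposite sign. It averaged 46.2 ± 6.37 CPM in Aged BAM15 (SD, n = 5), 48.5 ± 6.58 in Aged CTRL (SD, n = 6), 41.5 ± 7.34 in Young BAM15 (SD, n = 6) and 40.1 ± 5.77 for Young CTRL (SD, n = 7). All 6 Aged CTRL mice lay above the Young CTRL mean and 3 lay above every Young CTRL mouse. The log2 change was 0.27 (SE 0.15, edgeR adjusted p = 0.680) in controls and 0.16 (SE 0.17, adjusted p = 0.627) in treated mice, so no difference passed the test. An annotated antisense transcript, D930015M05Rik, overlaps exons of Cry2, with the same limit as for Arntl.

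No member passed the test with BAM15 at either age. Between Aged BAM15 and Aged CTRL, 0 of 6 were called, beside 0% of all genes in edgeR and 9.1% at an unadjusted p under 0.05, where 0 of 6 members stood. DESeq2 called 103 of all genes and none of the 6, and limma-voom called 966 and 1 of the 6. All 6 had a log2 change below 0, beside 48.3% of all genes: Nfil3 was at -0.89 (SE 0.52), Arntl at -0.59 (SE 0.42), Cry1 at -0.50 (SE 0.42), Npas2 at -0.43 (SE 0.94), Cry2 at -0.07 (SE 0.17) and Clock at -0.02 (SE 0.24). Clock was above 0 in 5 fits that left out 1 library, by up to 0.16 without Aged CTRL 6, and with a covariate for B cell or muscle markers. Cry2 was above 0, at 0.0018, without Aged BAM15 2, so the count of 6 depends on these settings. The adjusted p of the 6 ran from 0.638 to 0.990 in edgeR. These values moved with the libraries used: without the 4 with low mt-Rnr2, Npas2 was at -2.31 (adjusted p = 0.421) and Arntl at -1.29 (adjusted p = 0.218). Arntl was at -1.34 (adjusted p = 0.030) with limma-voom, which gives less weight to libraries that vary more.

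Between Young BAM15 and Young CTRL, 0 of 6 were called, beside 0% of all genes in edgeR and 13.1% at an unadjusted p under 0.05, where 0 of 6 members stood. DESeq2 called 162 and limma-voom 631 of all genes, and neither called a member, but DESeq2 gave Npas2 no adjusted p here. Nfil3 had the largest difference among the better counted members, at a log2 change of -0.67 (SE 0.47, adjusted p = 0.565), and all 6 treated mice lay below the control mean. Arntl was at -0.30 (SE 0.38), Clock at -0.06 (SE 0.22), Cry1 at -0.12 (SE 0.38), Cry2 at 0.05 (SE 0.15) and Npas2 at 0.50 (SE 0.81). The difference between the BAM15 effects at both ages was not called for any member, beside 0% of all genes in edgeR and 5.08% at an unadjusted p under 0.05, where again 0 of 6 members stood. It was -0.28 (SE 0.56) for Arntl on the log2 scale. DESeq2 called 2 genes in that test and limma-voom called 0, with no member among them.

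Over both ages, a comparison also added after the values were seen, none of the 6 was called, beside 0.922% of all genes, and DESeq2 called none of them either. Nfil3 was at -0.78 (SE 0.35, edgeR adjusted p = 0.268) and Arntl at -0.45 (SE 0.28, adjusted p = 0.461). Without the 4 libraries with low mt-Rnr2, Arntl was called at -0.87 (adjusted p = 0.030), as 1 of 765 genes called among 16553. With limma-voom, which called 3291 of 15939 genes, Arntl (-0.86, adjusted p = 0.0057) and Nfil3 (-0.80, adjusted p = 0.047) were called.

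The targets of the BMAL1 complex and the receptors that feed back on Arntl lay on the other side of 0 with age. Dbp, an E-box target that activates at D-boxes, averaged 66.0 ± 28.9 CPM in Aged BAM15 (SD, n = 5), 53.5 ± 36.0 in Aged CTRL (SD, n = 6), 9.74 ± 2.77 in Young BAM15 (SD, n = 6) and 12.7 ± 3.62 for Young CTRL (SD, n = 7). It rose in controls by a log2 change of 2.07 (edgeR, adjusted p = 0.012) and in treated mice by 2.76 (adjusted p = 0.0022). Of the PER and other E-box repressors, 1 of 6 was called in controls, Per1 at 1.28 (adjusted p = 0.025), and 1 of 6 in treated mice, Per3 at 2.08 (adjusted p = 0.0022). Of the REV-ERB and ROR receptors, 0 of 5 were called in controls and 1 of 5 in treated mice, Nr1d2, the gene of REV-ERB-beta, at 2.47 (adjusted p = 0.031). Of the PAR bZIP factors, 1 of 3 was called in controls and 3 of 3 in treated mice, with Tef at 2.59 (adjusted p = 0.011) and Hlf at 1.41 (adjusted p = 0.0061) beside Dbp. All of these were higher in aged fat.

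Nr1d1, the gene of REV-ERB-alpha and the best known repressor of Arntl, was at -0.11 (SE 0.43, edgeR adjusted p = 0.986) with age in controls and at 0.76 (SE 0.47, adjusted p = 0.410) in treated mice. Over both treatments, 3 of 6 E-box repressors, 1 of 5 receptors and 3 of 3 PAR bZIP factors were called, all higher, beside 1.72% of all genes called higher. None of the 12 genes for turnover of CRY and PER proteins, the 11 partners of CLOCK and BMAL1 or the 5 tested of 6 further E-box outputs was called over both treatments in edgeR. At an unadjusted p under 0.05, 3, 1 and 1 of them passed, beside 19.7% of all genes. The 6 activator and CRY genes thus held 2 called genes, both lower. The 14 repressors, receptors and PAR bZIP factors held 7, all higher. The labels do not give the time of day at which the fat was taken at either age. The part of time of day in these opposed changes was not tested.

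**Figure D3:**
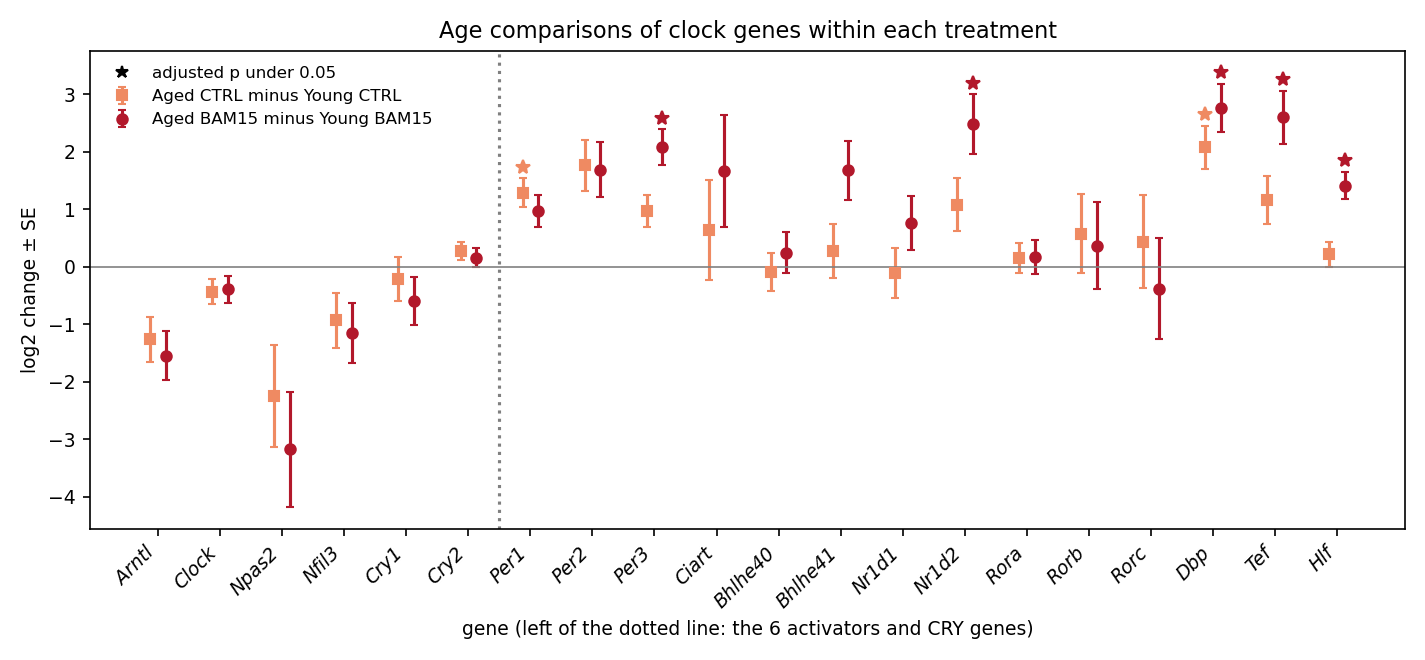
Log2 change with age and its SE (vertical axis) for the 6 activator and CRY genes, left of the dotted line, and 14 other clock genes, in treated and untreated mice; stars mark an adjusted p under 0.05. Arntl and Npas2 lie below -1 in both comparisons, and Dbp lies above 2 in both.

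Within groups, Arntl and Clock went together from mouse to mouse. Among the 10444 genes compared, those whose mean reached 5 CPM, the gene whose deviations from the group means were most like those of Arntl was Clock, with a Pearson r of 0.81 over 24 libraries. Without the 4 libraries with low mt-Rnr2 this r was 0.55 over 20. The next were Usp19 at 0.80 and Gnai3 at 0.79, which stood at 0.50 and 0.27 without them, and the gene most opposed was Puf60 at -0.80, or -0.40 without them. Both genes of a pair are read from the same library and share its depth and tissue make-up, so these values are a description and carry no p.

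**Figure D4:**
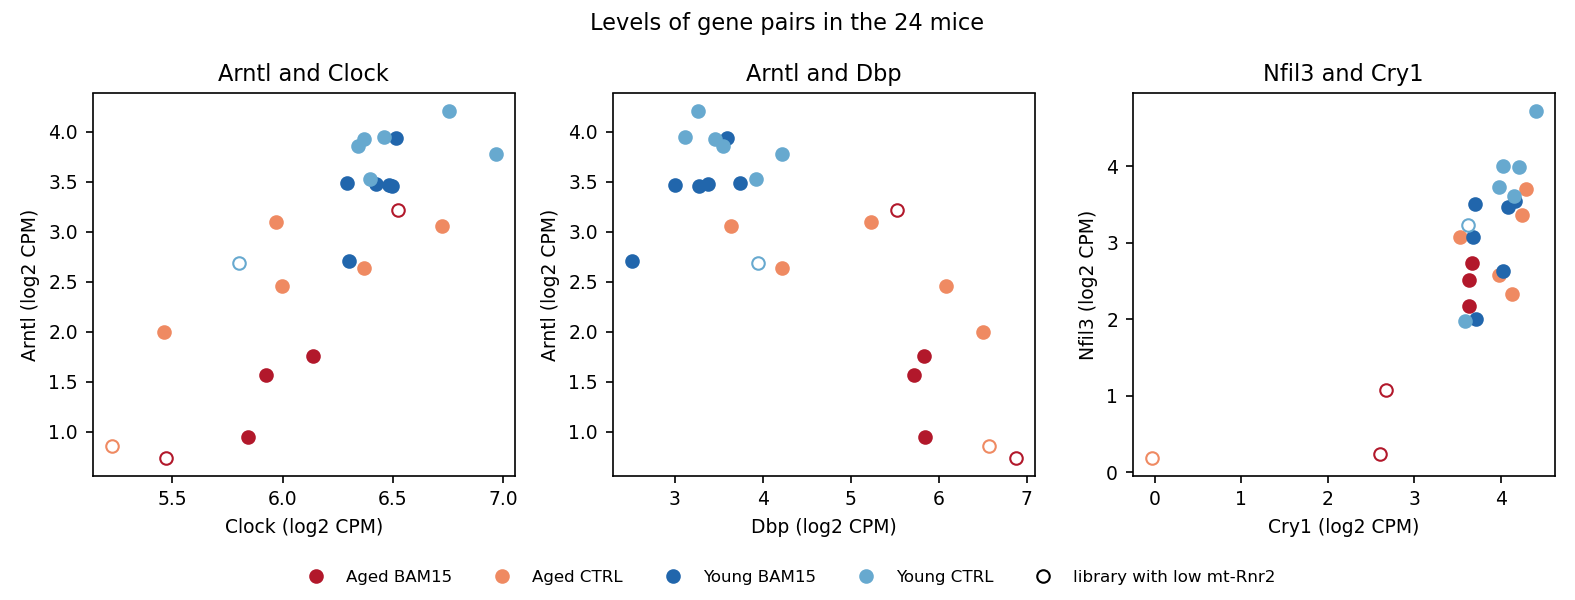
Log2 CPM of Arntl against Clock, Arntl against Dbp and Nfil3 against Cry1 in the 24 mice, coloured by group, with open circles for the 4 libraries with low mt-Rnr2. Aged mice lie on average at lower Arntl and higher Dbp, and aged and young controls overlap in both genes. In the last panel 3 open circles lie apart at low Cry1 and low Nfil3.

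The genes most like Clock were Arntl, Ddx3x at 0.80 and Ube3a at 0.79, with 0.76 and 0.69 for the last pair without the 4 libraries. Dbp, which peaks opposite to Arntl over the day, had an r of -0.51 with Arntl, and -0.30 without them. The Per genes, also opposite in phase, were mixed: Per1 had an r of -0.17 with Arntl, Per2 of 0.29 and Per3 of -0.38. Without the 4 libraries these stood at -0.35, 0.007 and 0.02. With Clock the r of Dbp was -0.69, and -0.60 without them. Cry1 and Nfil3 went together at 0.78, or 0.59 without them. The genes most like Cry1, Cpsf4 at 0.96, Nrf1 at 0.95 and Tada3 at 0.95, came to 0.40, 0.57 and 0.16 without them. Its r of -0.77 with Tef came to 0.04, so these values rest on the 4 libraries.

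Cry2 was most like Timp3 at 0.79, Rgl1 at 0.78 and Ppp1r2 at 0.77, and these stood at 0.74, 0.76 and 0.81 without them. Its most opposed genes were Lair1 at -0.81, Rpl38 at -0.77 and Haus8 at -0.77, at -0.77, -0.82 and -0.74 without them. Among clock genes Cry2 was most like Hlf, at 0.66 and 0.71. Its r with Cry1 was 0.04, and -0.47 without those libraries. Nfil3 was most like Rxrb, Lcor and Tmem63a, at 0.84 each, and these stood at 0.58, 0.72 and 0.62 without them. Npas2 was most like Bok at 0.69, Acot2 at 0.68 and Mkrn1 at 0.65, and these stood at 0.72, 0.80 and 0.28 without them.

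**Figure D5:**
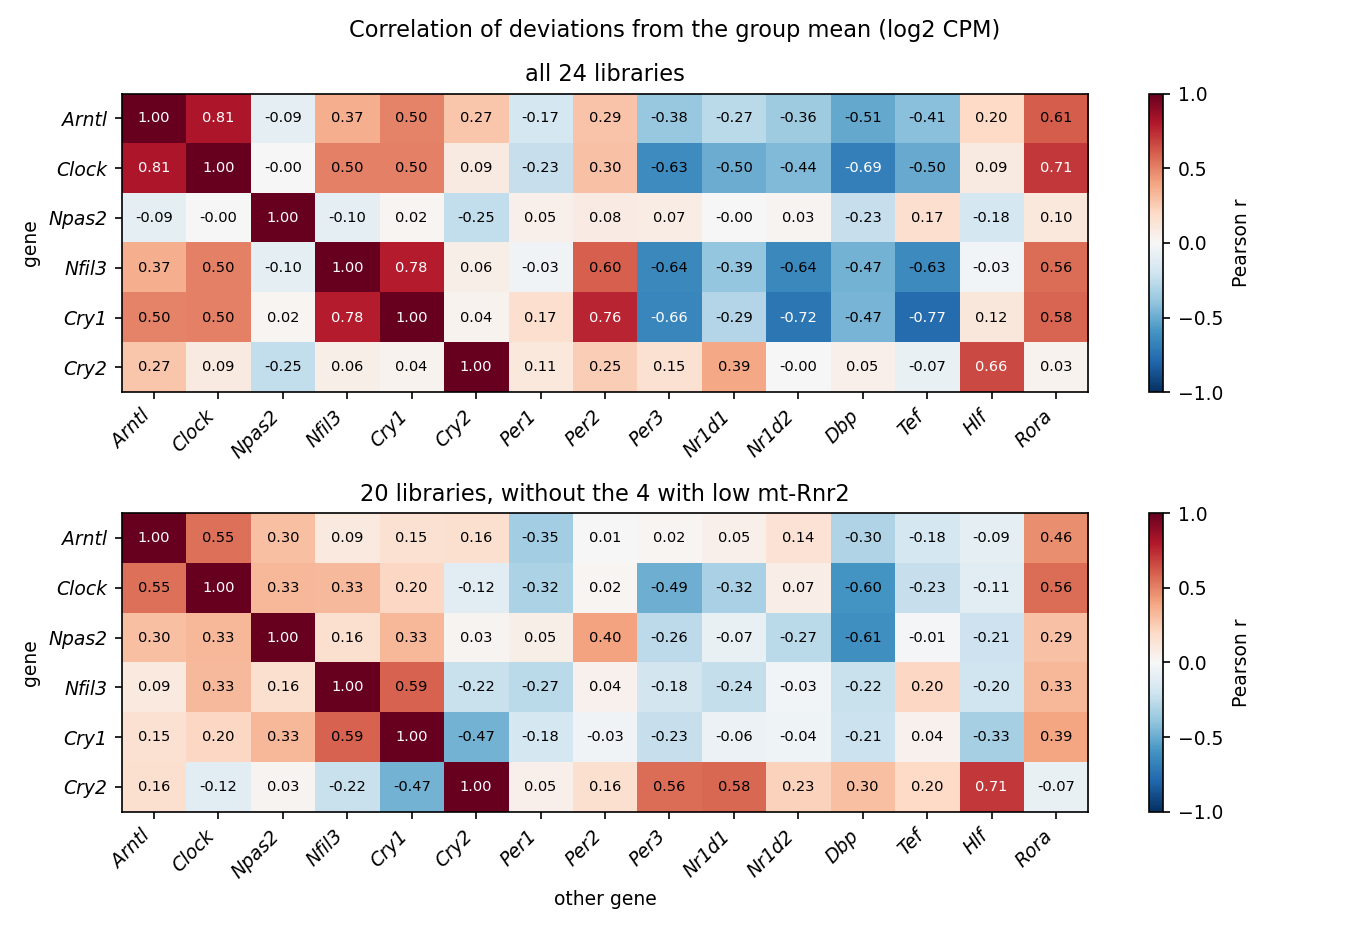
Pearson r of deviations from the group mean of log2 CPM, for the 6 genes (rows) with each other and with 9 clock genes (columns), over all 24 libraries and over the 20 without low mt-Rnr2; colour runs from -1 to 1. The Arntl and Clock value is 0.81 above and 0.55 below, and the Cry1 and Tef value is -0.77 above and 0.04 below.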

How the data were processed

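RNA was extracted from frozen fat and made into QuantSeq 3' libraries, per the labels' protocols. The authors deposited raw counts by Ensembl gene, and signal values that equal those counts over a size factor of each library (largest deviation 6.52e-09 counts). The submitters' processing notes name R 3.4.3, DESeq2 1.18.1 and GRCm38. No aligner, counter or strand setting is named by them.

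All results rest on the deposited counts. In R 4.3.3, edgeR 4.0.16 was fitted to all 24 libraries with trimmed mean of M values factors, filterByExpr (1602 genes removed, 15939 kept), a term for the group and the robust quasi-likelihood F-test, which left 20 residual degrees of freedom and a common biological coefficient of variation of 0.621. Adjustment of p was by Benjamini-Hochberg over all genes kept. SE is the size of the log2 change over the root of F. CPM uses the scaled library size, and log2 CPM a prior count of 2. Alternatives were other scaling factors and filters, DESeq2 1.42.0, limma-voom (limma 3.58.1) with quality weights, a fit of only the groups compared, a replicate block, covariates for B cell and muscle markers, and left-out libraries.

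The members and lists were chosen with earlier results of these data known. The text names the 6 members in every comparison. Of the other clock genes it gives changes for Nr1d1 and for those called with age within a treatment. Those called over both treatments are given as counts. Likeness was ranked among genes averaging 5 CPM or more, predicted genes left out. The 3 genes with the highest r are named for each member, with the lowest for Arntl and Cry2. Gene positions are from the GENCODE vM21 annotation of GRCm38. Each library is a separate mouse, and replicate numbers were read as names. Within groups, the chi-square per gene between libraries ran from 19.8 to 644 over 61 pairs, so no library copied another.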

Additional observations from a re-analysis of the deposited data

Results flagged for a closer look

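Of the 24 sets of values by gene and group that were examined for a sample far from the others, 2 stood out, and chance gives about 1 in 20. Arntl was at 9.16 CPM in Aged BAM15 5, far above the other 4 mice of its group, which lay between 1.51 and 3.24 CPM. Npas2 was at 1.65 CPM in Aged BAM15 2, above 0.298 CPM in Aged BAM15 3 and 0 counts in the other 3. Both are among the 4 libraries with low mt-Rnr2, and the part of that in the values was not tested.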

How the results depend on the processing

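Of the single-gene results, 449 kept their direction and side of the threshold under alternatives other than leaving out 1 library. There, 19 changed sign, 13 were called only in the alternative and 2 only in the main fit. With 1 library left out, 964 were kept, 38 changed sign, 3 were called only in the alternative and 3 only in the main fit. A result that stayed uncalled with the same sign counts as kept. The number of members called in Aged CTRL against Young CTRL was 2 with limma-voom and 1 when the libraries of low mt-Rnr2 were left out. In Aged BAM15 against Young BAM15 it was 1 with DESeq2, 2 with limma-voom, 1 without low mt-Rnr2 and 0 to 1 with 1 library left out. In Aged BAM15 against Aged CTRL it was 1 with limma-voom. Age over both treatments had 1 member called with the replicate block, 1 without the libraries with high Krt14, 3 with DESeq2, 3 with limma-voom and 1 to 2 with 1 library left out. BAM15 over both ages had 2 with limma-voom and 1 without low mt-Rnr2.

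Replicate numbers did not pair the mice: the median correlation of deviations was -0.04 over 33 pairs with the same number and 0.00 over 182 other pairs, and 3 of 24 libraries matched their own number best. With the replicate block, Npas2 over both treatments was at -3.04 (edgeR, adjusted p = 0.060), and genes called with age were 5 in controls (33 without it), 13 in treated mice (68) and 97 over both (343). Other counts of all called genes also moved by over 1.5 times: in controls to 4 without high Krt14, 79 without low mt-Rnr2, 18 with the compared groups alone, 179 with DESeq2 and 145 with limma-voom; in treated mice to 27 without low mt-Rnr2 or with the B cell covariate, 17 with those groups alone, 370 with DESeq2 and 302 with limma-voom; over both treatments to 195 without high Krt14, 938 with DESeq2 and 757 with limma-voom. For BAM15 over both ages the 147 became 0 with the block or the B cell covariate, 89 with upper-quartile factors or no filter, 692 with DESeq2, 765 without low mt-Rnr2 and 3291 with limma-voom. With 1 library left out, the calls ran from 20 (without Aged CTRL 6) to 46 (without Aged BAM15 2) for age in controls, from 14 (without Aged BAM15 5) to 245 (without Aged CTRL 2) in treated mice and from 159 (without Aged BAM15 5) to 610 (without Aged BAM15 4) over both. For BAM15 they ran from 0 to 67 (without Aged BAM15 1) in aged mice, 0 to 1 in young mice, and from 0 (without Aged BAM15 4) to 586 (without Aged CTRL 2) over both ages.

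Small changes turned sign. Clock in Aged BAM15 against Aged CTRL was 0.10 with the block, 0.013 with the B cell covariate and 0.0075 with the muscle covariate (-0.18 to 0.16 with 1 library left out), and in Young BAM15 against Young CTRL 0.073 with the B cell covariate (-0.15 to 0.042). Without high Krt14, Cry1 in the young comparison was 0.015 and Cry2 was -0.012 (-0.081 to 0.11). For the difference of BAM15 effects, Clock was -0.11 with limma-voom, -0.029 without low mt-Rnr2 and -0.060 with the B cell covariate (-0.12 to 0.22), Nfil3 was 0.45 with limma-voom and 0.13 without low mt-Rnr2 (-0.48 to 0.037), and Cry2 ran from -0.18 to 0.0052. For BAM15 over both ages, Clock was 0.031 with the block and 0.043 with the B cell covariate (-0.12 to 0.052), Npas2 was -0.14 with limma-voom, -0.12 with the block, -0.95 without low mt-Rnr2 and -0.26 with the B cell covariate (-1.08 to 0.22), and Cry2 was 0.0049 without low mt-Rnr2 and 0.096 with the B cell covariate (-0.079 to 0.020). Cry1 with age in controls ran from -0.33 to 0.036, and Cry2 in Aged BAM15 against Aged CTRL from -0.12 to 0.0018. The cause was not tested. Npas2 had no adjusted p in 2 DESeq2 comparisons, Aged BAM15 against Young BAM15 and Young BAM15 against Young CTRL. It was filtered out when Aged BAM15 and Aged CTRL were fitted alone. Low counts limit Npas2 most.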
